A study of Mus musculus with 4 samples.

Results

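The BCL2 family controls whether a cell commits to death through its mitochondria, and 10 of its genes were examined here in mouse oocytes exposed to high hydrostatic pressure. They comprised 4 genes grouped as pro-survival (Bcl2, Bcl2l1, Bcl2l10 and Mcl1) and 6 grouped as pro-death (Bax, Bak1, Bok, Bid, Bad and Bbc3). The genes were taken by their names in the scanner files, which gave 10 of 27962 gene names, 17 of 41174 probes and 44 of 43379 spots other than controls on each array. Treated oocytes were held at a hydrostatic pressure of 20 MPa for 60 min at 37 °C, and control oocytes were handled in the same way but without the pressure. Per the labels, each of 4 two-colour arrays carried 1 treated pool of 50 oocytes in Cy5 (red) and 1 control pool of 50 oocytes in Cy3 (green), so that dye and treatment cannot be told apart. The submitters describe the 4 replicates as biological. The strain, the age of the females, the stage of the oocytes and whether the pools came from separate animals are not given in the sources used here, so that p-values measure the spread between these pools.

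The pro-survival proteins of the family, BCL2, BCL-XL (encoded by Bcl2l1) and MCL1, sit on intracellular membranes and hold back the pore-forming proteins BAX and BAK. BH3-only proteins such as BID, BAD and PUMA (encoded by Bbc3) are the stress sensors, and they bind the survival proteins or activate BAX and BAK directly. Once BAX or BAK opens the outer mitochondrial membrane, cytochrome c escapes and caspases are activated. In the mouse ovary, loss of MCL1 depletes oocytes, and PUMA acts downstream of p63 in the death of oocytes with damaged DNA. Bcl2l10, also called Diva or Boo, is known for its expression in the ovary and oocytes, and mouse studies have described its product both as an inhibitor and as a promoter of cell death.

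Each gene was read out by 60-base probes. The following sequences, written 5′ to 3′ from the deposited files, are those of the Bcl2l10 probe, a Mcl1 probe and examples at or near background. The Bcl2l10 probe lies at chr9:75388690-75388749 (+ strand) of mouse build mm7, and bases 31 to 60 are shown, with capitals marking a TTTTAAT match. The kept Mcl1 probe lies at chr3:95536882-95536941 (+ strand), and its bases 1 to 30 are shown. The Bax probe and the Bcl2 probe labelled as transcript variant 2 were detected in no pool. Both, and the Bak1 probe detected in 2 of 8 pools, are shown whole as examples at or near background, with no part in capitals.
Bcl2l10: cccttaatacatTTTTAATaacttcaaatt
Mcl1: gctgcttggaaagatggctctcagcaaaat
Bax: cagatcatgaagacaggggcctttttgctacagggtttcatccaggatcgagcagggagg
Bak1: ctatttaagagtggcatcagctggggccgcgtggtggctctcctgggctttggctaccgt
Bcl2: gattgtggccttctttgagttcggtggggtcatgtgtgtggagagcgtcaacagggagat
The Bax probe maps to chr7:41641827-41641982 (- strand), a span of 156 bp for 60 bases, so its match to the genome is not contiguous. The Bak1 probe maps to chr17:25205887-25205946 (- strand) and the Bcl2 probe, which the files assign to transcript variant 2, to chr1:106612249-106612308 (- strand).

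TTTTAAT is a form of the cytoplasmic polyadenylation element, a sequence in the mRNA tail region through which oocytes store transcripts and later lengthen their poly(A) tails. On the sense strand it was present in 1 of 17 probes of the family, that of Bcl2l10, and in 1.12% of all 60-base probes. The related TTTTAT was in 0 of the 17 and in 4.05% of all probes. The probe of Bcl2l10 had 25.0% G and C, and those of the other members had between 31.7% and 60.0%. These matches describe the letters of the probes only.

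A spot was counted as detected when the scanner software marked its signal as well above background. Per array, this held for 7049 to 11155 spots of treated pools and for 8309 to 10837 spots of control pools. Of 15 oocyte marker genes on the array, 10 were detected in all 8 pools, Gdf9, Bmp15, Zp3 and Zar1 among them, whereas Zp2, Mos, Figla and Nlrp5 did not pass the filter of the next paragraph. Of 15 cumulus and granulosa cell markers, 6 passed that filter and 1 (Tnfaip6) was detected in all 8 pools. So were 2 of 7 blood and immune cell markers (Hba-a1 and Srgn) and 1 of 8 markers of oviduct epithelium, endothelium and stroma (Acta2). Srgn had a log2 ratio of -0.52 (limma's unadjusted p = 0.019, adjusted p = 0.93), whereas Hba-a1 had 0.28. Of the tested probes of the other marker lists, 6 of 14 for oocytes and 4 of 6 for cumulus and granulosa cells lay below 0. For oviduct epithelium, endothelium and stroma it was 1 of 2. The part of such cells in the values below was not tested. Replicate 1 stood apart from the other arrays. Its log2 ratios correlated across all probes at r = -0.169, -0.151 and -0.188 with those of replicates 2, 3 and 4, and the treated channel was the brighter one on that array alone, with a treated over control ratio of 2.56 at the 99th percentile of net signal, against 0.393, 0.247 and 0.304 on replicates 2, 3 and 4. The labels give the same dyes for all arrays, and whether those of replicate 1 were exchanged is not settled by the files. Values on that array are given as labelled, and results that rest on it also with its sign turned or without it.

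Of the 10 genes, Bcl2l10 gave a strong signal in every pool, Mcl1 was near the limit of detection, and the other 8 were detected in few pools or in none. A probe entered the test when treated pools, or control pools, showed it detected on 3 or more of the 4 arrays. This was met by 2 of the 17 probes, 1 each for Bcl2l10 and Mcl1, and thus by 2 of the 10 genes. Over the whole array 19.7% of probes and 24.8% of gene names met it. Detection in all 8 pools was seen for 1 of the 17 probes (10.4% of all probes), and detection in no pool for 8 of the 17 (65.1% of all probes). Of 128 readings from probes other than that of Bcl2l10, 94 were no higher than the 97.5th percentile of the negative control spots in the same channel. Neither of the 2 passed limma's test of treated against control pools, in which 0% of 8108 probes did (324 probes, 4.00%, had an unadjusted p under 0.05). Both genes are on the pro-survival side, and 0 of 8 pro-death probes passed the filter. Signals of different probes are not compared with each other, because each probe binds its target with its own strength, so the 2 sides of the family are set against each other by detection and by ratio.

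**Figure D1:**
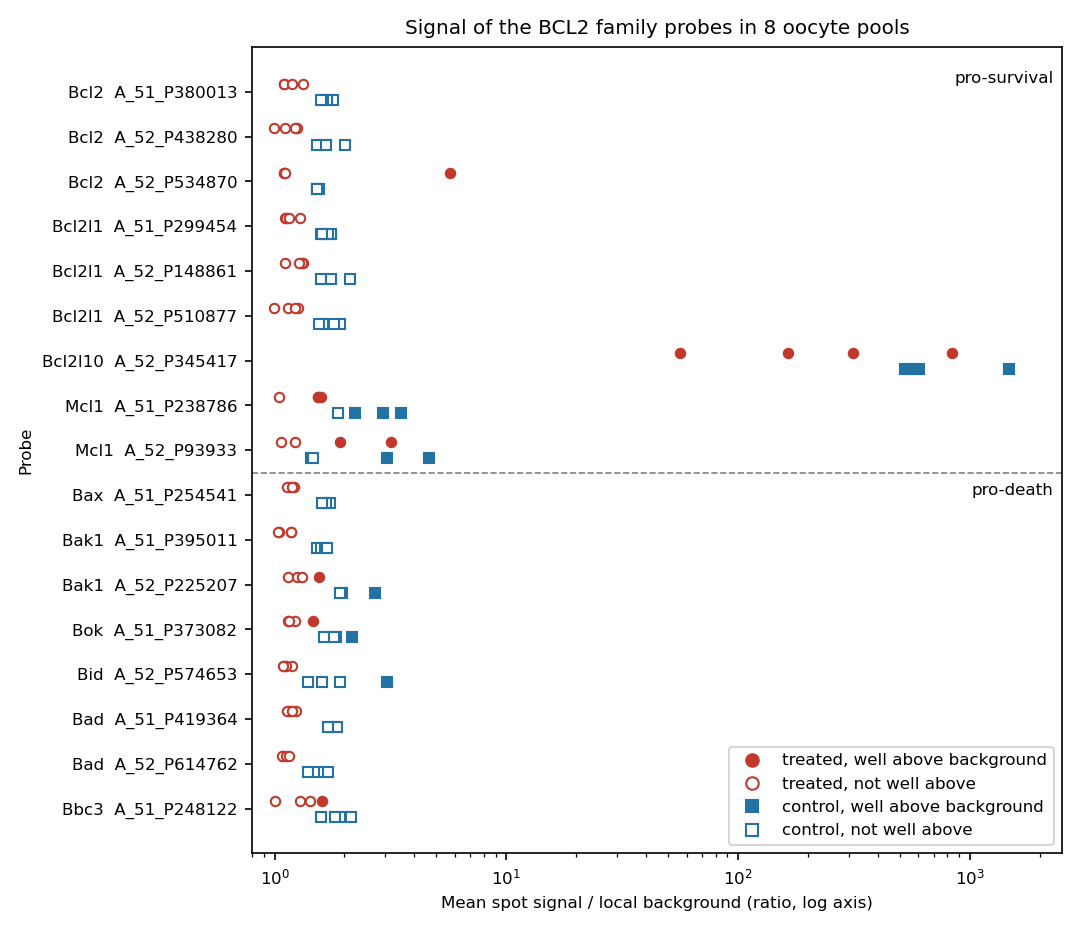
Mean spot signal divided by the local background (log axis) for the 17 probes of the 10 genes, with red circles for the 4 treated pools and blue squares for the 4 control pools of each probe. Filled symbols were well above background. Bcl2l10 lies between 56.4 and 1470 in all 8 pools. The local background of these spots was 30 to 41 in the treated channel and 20.5 to 30 in the control channel.

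Bcl2l10 had mean signals of 30115, 5666, 9669 and 1803 in treated pools of replicates 1 to 4. In control pools its signals were 11499, 14442, 33909 and 15269. All 8 readings were well above background, at 56.4 to 837 times the local background in treated pools and 523 to 1470 times in control pools. Treated pools were thus brighter than their control pools on replicate 1 and dimmer on the other 3 arrays before normalization. The treated over control ratio of net signal was 2.62, 0.391, 0.284 and 0.116, and the same ratio at the 99th percentile of all spots was 2.56, 0.393, 0.247 and 0.304.

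After normalization the Bcl2l10 levels were 13.73, 13.33, 15.06 and 11.32 on the log2 scale in treated pools, against 13.88, 13.45, 14.55 and 12.70 in control pools. The log2 ratio was -0.15, -0.13, 0.51 and -1.39 on replicates 1 to 4, so that 3 arrays lay below 0 and 1 above. The mean level was 13.36 ± 1.55 in treated pools and 13.65 ± 0.77 in control pools (SD, n = 4 each), and the groups overlapped. The mean log2 ratio was -0.29 ± 0.33 (SE, n = 4), which did not pass limma's test (adjusted p = 0.93 over all probes tested). This value rested on replicate 4, without which it was 0.075 ± 0.23. It was -0.56 without replicate 3 and -1.06 with median centring, a scaling that moved the median of all tested probes to -0.32.

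Mcl1 encodes a short-lived survival protein that must be renewed continually. Its tested probe had signals of 51.4, 57.1, 38.9 and 52.4 in treated pools of replicates 1 to 4, against 93.0, 64.5, 70.5 and 52.3 in control pools. It was well above background in 3 treated pools (not replicate 3) and in 3 control pools (not replicate 4). The normalized levels were 6.39 ± 0.21 in treated pools and 6.67 ± 0.40 in control pools on the log2 scale (SD, n = 4 each). The log2 ratio was -1.09, 0.05, -0.33 and 0.24 on the single arrays, with a mean of -0.28 ± 0.27 (SE, n = 4, limma's adjusted p = 0.93). Replicate 1 carried most of it, and without that array the log2 ratio was -0.013. It was 0.26 with the sign of that array turned, and -0.95 in the authors' deposited log ratios.

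The other Mcl1 probe, at chr3:95535570-95535629 (+ strand), did not pass the filter and ran the other way. It had signals of 61.5, 39.5, 40.1 and 110.0 in treated pools, against 36.8, 43.4, 73.4 and 121 in control pools, with 2 pools detected in each group. Its log2 ratio was 0.48, 0.01, -0.12 and 0.72, a mean of 0.27 ± 0.17 (SE, n = 4) when no filter was applied. On replicate 1 the probes of Mcl1 therefore had opposite signs, -1.09 and 0.48.

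**Figure D2:**
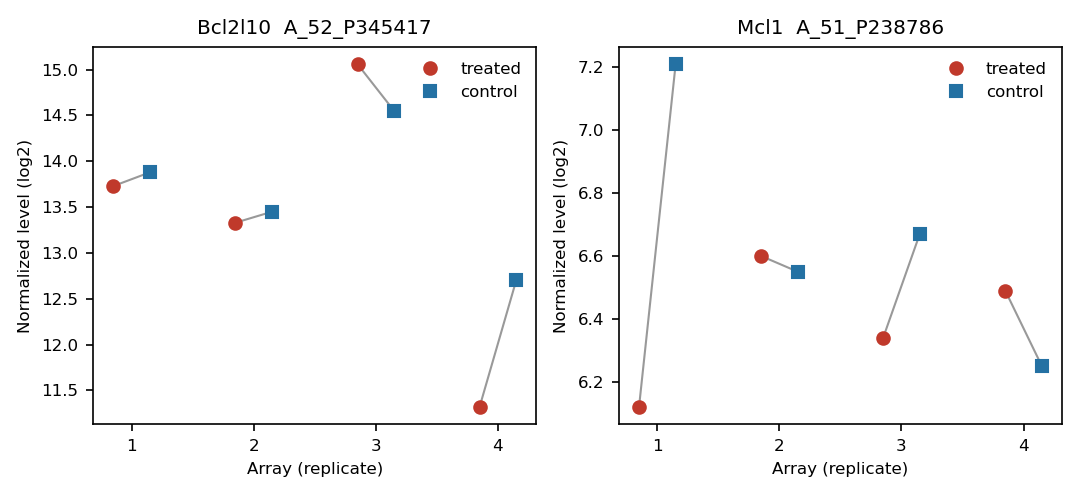
Normalized log2 levels of the Bcl2l10 probe (left) and the tested Mcl1 probe (right), with the treated pool (red circle) left of the control pool (blue square) of the same array and a line joining them. For Bcl2l10 replicate 4 has the widest gap (-1.39), and for Mcl1 replicate 1 (-1.09). The vertical axes differ.

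Bcl2, the founding survival gene of the family, was covered by 3 probes. The probes assigned to transcript variant 2 and to a RIKEN clone were not well above background in any of the 8 pools, with signals of 36.4 to 47.5 in treated pools and 38.2 to 50.6 in control pools. Variants are named as the probes are labelled, and whether these probes tell the variants apart was not tested. The probe assigned to transcript variant 1, at chr1:106438098-106438157 (- strand), is spotted 10 times on each array. It gave mean signals of 200.0, 42.1, 37.4 and 41.4 in treated pools of replicates 1 to 4. In control pools it gave 39.9, 44.0, 37.5 and 42.8. On replicate 1 the pool labelled as treated was detected at all 10 spots, which ranged from 88.3 to 251 with a median of 225, and the pool labelled as control at none. Should the dyes of that array have been exchanged, this signal would be the control pool's. On the other 3 arrays 0 spots were detected in either channel. The 10 spots lay between rows 87 and 485 and columns 19 and 79 of the array, so they were not neighbours in 1 patch.

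Detection by this Bcl2 probe was thus limited to 1 of the 8 pools, the treated pool of replicate 1 as labelled. The other Bcl2 probes read 43.4 and 39.9 in that same pool and were not detected there. Of all 41174 probes, 1.92% were detected in that pool and in none of the other 7, against 0.313% to 1.38% for each of the other pools. The log2 ratio was 1.28 on replicate 1 as labelled, against 0.01 to 0.02 on the other arrays, where neither pool was detected. No fold over the 4 arrays is given, and the probe was not tested, since it did not pass the filter.

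**Figure D3:**
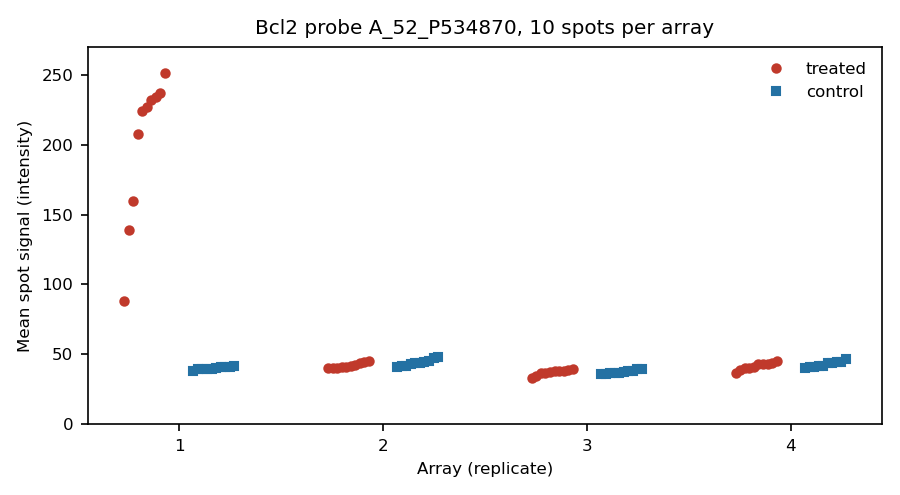
Mean signal (intensity) of each of the 10 spots of the Bcl2 variant 1 probe on the 4 arrays, with treated spots (red circles) left of control spots (blue squares) of the same array and spots sorted by signal. The 10 treated spots of replicate 1 lie between 88.3 and 251, and every other spot lies at or below 47.9.

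Bcl2l1, whose main product BCL-XL protects germ cells in the mouse ovary and testis during development, was likewise close to background. Its probe at chr2:152521752-152521811 (- strand), also spotted 10 times per array, gave 46.7, 48.4, 38.0 and 46.1 in treated pools and 42.0, 58.4, 37.7 and 49.7 in control pools. Of 40 spot readings in each group, 6 were well above background in treated pools and 6 in control pools. The treated readings were 5 on replicate 1 and 1 on replicate 2, and the control readings were 4 on replicate 2 and 2 on replicate 4. The other probes of Bcl2l1 were detected in 0 of 8 pools, at 32.9 to 44.7 in treated pools and 37.6 to 49.0 in control pools.

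Among the pro-death genes, Bax encodes a pore-forming effector that moves to mitochondria on activation. Its probe, shown above and spotted 10 times, had mean signals of 41.6, 44.6, 38.6 and 43.1 in treated pools, against 43.4, 48.7, 40.3 and 45.1 in control pools. None of 38 treated and 38 control spot readings was well above background. Bak1 encodes the effector that resides on mitochondria. Its probe shown above was detected in 1 treated pool (57.9, replicate 1) and 1 control pool (73.2, replicate 2), with the remaining treated pools at 39.3 to 50.7 and the remaining control pools at 43.2 to 53.7. The other Bak1 probe was detected in no pool. Bok, the BCL2-related ovarian killer, was detected in 1 treated pool (51.0, replicate 4) and 1 control pool (52.7, replicate 3).

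The BH3-only members were no more often detected. Bid, which links caspase-8 to mitochondria, had 38.9, 41.6, 35.8 and 36.1 in treated pools and 37.5, 42.3, 44.2 and 79.7 in control pools, with detection in the control pool of replicate 4 only. Bbc3 had 51.6, 40.2, 40.0 and 46.8 in treated pools and 41.4, 53.3, 44.1 and 49.3 in control pools, with detection in the treated pool of replicate 1 only. Both groups overlapped for each gene. Bad, which binds and neutralizes BCL-XL and BCL2, was detected in 0 of 8 pools with either probe. Of these, the probe made from a RIKEN clone maps to the - strand at chr19:6770968-6771027, and the RefSeq probe to the + strand at chr19:6761992-6762051, so the clone's probe does not lie on the strand of the RefSeq transcript.

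Counted over the family, 20 of 72 readings of the 9 pro-survival probes were well above background, and 6 of 64 readings of the 8 pro-death probes. Bcl2l10 supplied 8 of the 20, and the other pro-survival probes had 12 of 64. Over all probes 20.5% of readings were detected. By group, pro-survival probes were detected in 11 of 36 treated readings and 9 of 36 control readings, and pro-death probes in 3 of 32 treated readings and 3 of 32 control readings. Replicate 1 held 5 of the 11 detected treated readings of pro-survival probes and 2 of the 3 of pro-death probes, in the treated channel with the highest count of detected spots. Without that array the treated counts were 6 of 27 and 1 of 24, and the control counts 7 of 27 and 3 of 24. Probes of 1 gene share a target and are not independent. In pools of whole oocytes, fewer cells containing a transcript and less of it per cell cannot be told apart.

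As no pro-death probe passed the filter, the ratios of both sides could be set against each other only over all 17 probes, most of them at background. The median log2 ratio of pro-survival probes was -0.004 ± 0.029, and that of pro-death probes -0.012 ± 0.021 (SD, n = 4 arrays each). The difference, pro-survival minus pro-death, was -0.035, -0.001, 0.041 and 0.028 on replicates 1 to 4, a mean of 0.008 ± 0.034 (SD, n = 4). This was smaller than the spread between arrays, and values at background pull every ratio toward 0. Under the authors' deposited log ratios the difference was 0.050 ± 0.22, and with the processed signals of the scanner software 0.12 ± 0.20 (SD, n = 4 each). In the deposited log ratios the pro-survival median was 0.0 ± 0.0, so that difference only repeats the pro-death median with its sign turned.

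Other members of the family were measured better than most of the 10. Of 12 further BCL2-related genes on the array, 5 passed the filter, and all of them had a probe detected in all 8 pools. They are named because the count is small, and were chosen after their values were seen. Bcl2l11 encodes BIM, a BH3-only protein, and had normalized levels of 7.84, 7.36, 7.89 and 7.40 in treated pools, against 7.25, 7.60, 8.10 and 7.23 in control pools. Its log2 ratio was 0.08 ± 0.21 (SE, n = 4). Bmf, another BH3-only gene, had 0.14 ± 0.16 at the probe detected in every pool and -0.53 ± 0.38 at its other tested probe (SE, n = 4). The latter probe was detected in 1 treated and 3 control pools. Its log2 ratio was 0.14, -0.03, -0.30 and -1.94 on replicates 1 to 4, so its mean rested on replicate 4. Bnip3 and Bnip3l, receptors for the removal of mitochondria, had -0.22 ± 0.21 and 0.25 ± 0.36, and Bcl2l14 had 0.21 ± 0.22 (SE, n = 4 each). A dimmer Bnip3l probe, detected in 2 treated and 4 control pools, had the opposite sign, at -0.15 ± 0.23. Of these 7 tested probes, 0 were called higher and 0 lower by limma, and their median log2 ratio was 0.08 beside -0.02 over all tested probes. Pmaip1, Hrk, Bik, Bcl2l2, Bcl2l12, Bcl2l13 and Bcl2a1b did not pass the filter.

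Downstream of the family, 13 of 23 genes on the array passed the filter with 16 probes, of which 0 were called in either direction. Their median log2 ratio was -0.23, and 13 of the 16 lay below 0, beside 4242 of 8108 tested probes. Of the 16, 4 passed the filter through control pools alone, 4 of them below 0, beside 1334 of 1763 such probes on the array. Their place below 0 followed in part from that selection. The 11 that passed in both groups had 8 below 0, beside 2853 of 6009 such probes on the array. The channel gene Vdac2, whose product binds BAK on the outer mitochondrial membrane, had levels of 9.88, 9.36, 7.54 and 8.85 in treated pools, against 11.48, 9.44, 9.54 and 10.49 in control pools. Treated pools were lower on 4 of 4 arrays, with log2 ratios of -1.60, -0.09, -2.0 and -1.64, while the groups still overlapped. The mean was -1.33 ± 0.35 (SE, n = 4) and did not pass (limma's unadjusted p = 0.010, adjusted p = 0.93). Turning the sign of replicate 1 gave -0.53, and weighting the arrays gave -0.77.

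Cytochrome c, encoded by Cycs, had a log2 ratio of -0.44 ± 0.19 (SE, n = 4) at its probe detected in all pools, with -0.09, -0.85, -0.50 and -0.33 on the single arrays. A dimmer Cycs probe, not well above background in any treated pool, had -0.37 ± 0.18. The remaining tested Cycs probe, detected in 0 treated and 3 control pools, had -0.21 ± 0.16. In the authors' deposited log ratios the values of -0.44 and -0.37 were -0.88 and -3.06. A probe of Vdac1, another mitochondrial channel gene, had -0.49 ± 0.24 on the 3 arrays where it had a value, since its spot on replicate 4 carried an outlier flag. The other Vdac1 probe had -0.24 ± 0.26. Xiap, an inhibitor of caspases, had -0.23 ± 0.16 and was detected in 0 of 4 treated pools and 3 of 4 control pools. In the authors' deposited log ratios Xiap was at -2.51, with limma's unadjusted p = 0.0032 and adjusted p = 0.42. The Cycs probe at -3.06 had limma's unadjusted p = 0.0054 and adjusted p = 0.50 there. Xiap and this Cycs probe passed the filter through control pools alone, so a ratio below 0 follows in part from that selection. Their treated signals were not well above background, so the sizes of these ratios are not measured falls. None of these Cycs, Vdac1 and Xiap probes passed in the values reported here (limma's adjusted p = 0.93 for each). Caspase-3 and caspase-7, which execute the dismantling of the cell, did not pass the filter, whereas Casp2 (0.22 ± 0.28) and Birc5 (0.03 ± 0.18) were detected in all 8 pools.

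Upstream, 6 of 11 genes passed the filter with 8 probes, and 0 were called, with a median log2 ratio of -0.02. A Mapk8 probe, for a stress-activated kinase, had -0.41 ± 0.29 (SE, n = 4) and its other probe 0.10 ± 0.20. The first of these was -1.43 in the authors' deposited log ratios. Trp63, which encodes the p53 relative that guards oocytes, was detected in all 8 pools at 0.12 ± 0.18, and Trp53 had 0.30 ± 0.27 and 0.13 ± 0.18 at its 2 probes. Over the 3 lists together the median of the 31 tested probes was -0.21. It was 0.079 when both channels had to be detected on all 4 arrays, beside 0.022 over all such probes. That rule leaves out 8 probes that passed through control pools alone, 8 of them below 0, beside 1334 of 1763 such probes on the array. It also leaves out 1 that passed through treated pools alone, likewise below 0, beside 55 of 336. Further left out were probes that passed in both groups without detection in every pool. These were probes of Vdac1 (-0.49), Birc3 (-0.31), Casp9 (-0.18), Aifm1 (-0.01) and Trp53 (0.13). The 2 medians therefore describe different sets of probes, and the shift was not tested apart from this selection.

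**Figure D4:**
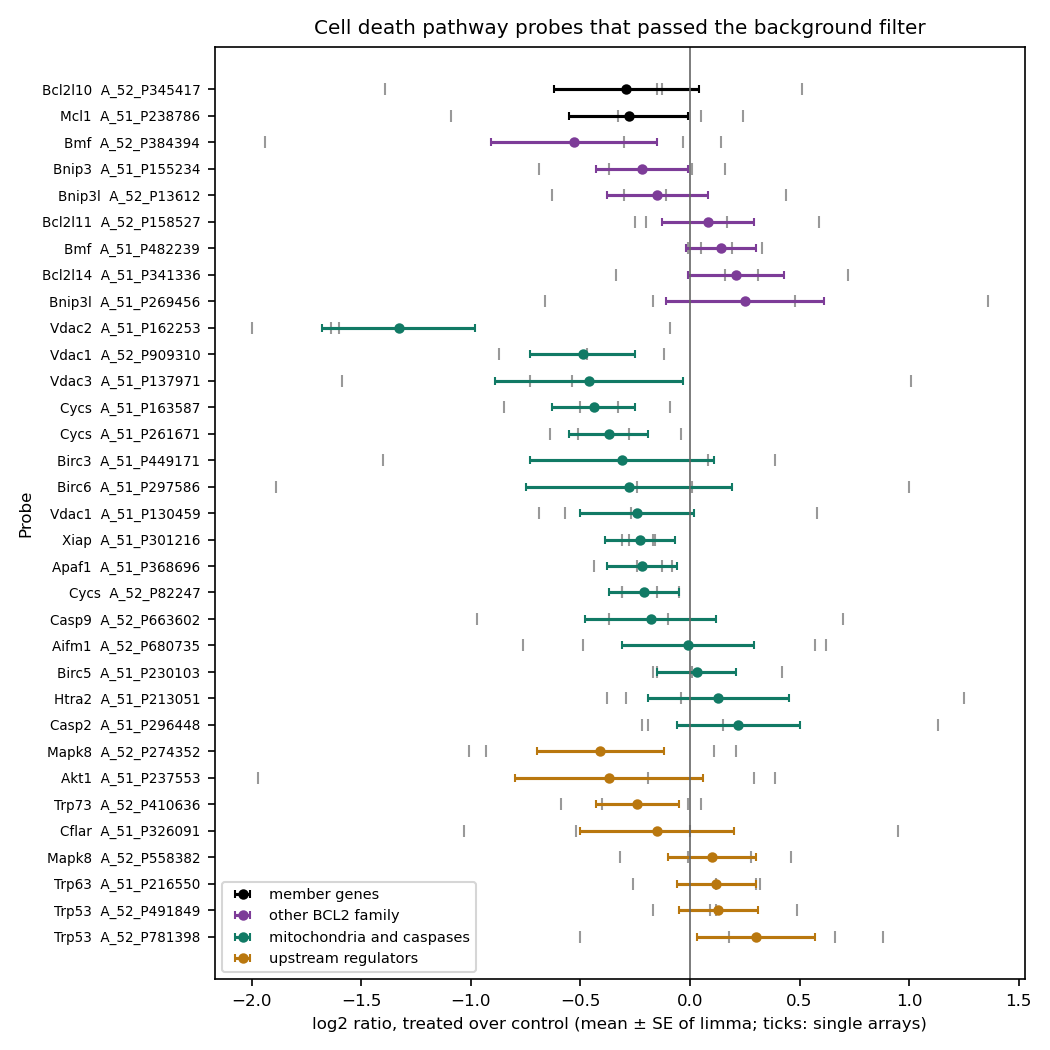
Log2 ratio of treated over control (mean ± SE from limma) for the 2 tested probes of the 10 genes and the 31 tested probes of other cell death genes, with grey ticks for single arrays. Vdac2 has the lowest mean (-1.33), and no probe shown passed the test.

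The levels of Bcl2l10 over the 8 pools were matched most closely by those of Obox3, Zfp296 and Acbd5, with Pearson correlations of 0.972, 0.965 and 0.963 over 8 normalized channel values among 6187 genes. Replicate 3 had the highest level of Bcl2l10 in both groups (15.06 in the treated pool and 14.55 in the control pool), and replicate 4 the lowest (11.32 and 12.70). The order of the arrays was the same for Zfp296 in treated pools, at 10.03, 9.72, 10.89 and 8.66 on replicates 1 to 4. The 2 pools of an array share a hybridization, and the correlations are given as a description.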

How the data were processed

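Each pool held 50 mouse oocytes. Per the labels' protocols, 240 pg of its total RNA went through 2 amplification rounds before CyDye coupling. The submitters' processing notes name Agilent Feature Extraction 9.5.1.1 as the source of the deposited spot and background intensity values. Its processed signals come after background subtraction and dye normalization by the software, per the file headers. The authors' value table equals their log10 ratio of red over green to within 5e-10. Coordinates are those of the files, in build mm7.

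The work here began with these intensities, in R 4.3.3 with limma 3.58.1. Normexp (offset 50) corrected the background, and loess, in which control spots had weight 0, normalized each array. Flagged spots were left out, no spot was saturated, and spots of a probe were averaged. A replicated probe counted as detected when at least 0.5 of its spots were. Levels are log2 values after Aquantile scaling. Log2 ratios of 8108 kept probes were set against 0 by lmFit and eBayes. Benjamini-Hochberg adjustment covered every kept probe, at a threshold of 0.05. Probes of the other lists were named through RefSeq symbols (assembly GRCm38.p6, used for names only), which gave a symbol to 32719 of 41174 probes. The number of arrays limits the precision. The fit was tested on simulated data.

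The members, lists, tests and alternatives were chosen with earlier results of these data known. Named from the other lists were the 6 tested probes with the smallest p and the 3 genes most like Bcl2l10; further genes were named after their values were seen. The comparison of ratios between both sides of the family was planned for probes past the filter, but no pro-death probe passed, so all probes were used. Alternatives covered background correction, normalization, the filter, eBayes settings, array weights, an unpaired separate-channel fit, the authors' values, averaging of probes by gene, the orientation of replicate 1 and leaving out each array.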

Additional observations from a re-analysis of the deposited data

Results flagged for a closer look

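A single array stood well away from its 3 companions in 4 of 45 sets of 4 values, and chance alone would do so in about 5% of sets. The Bcl2 variant 1 probe had a signal of 200.0 in the treated pool of replicate 1, against 37.4 to 42.1 in the other treated pools. The Bok probe had 44.0 in the control pool of replicate 1, against 52.1 to 52.7 in the others, and was detected in 1 of these 4 pools. The Bid probe had 79.7 in the control pool of replicate 4, against 37.5 to 44.2, and was detected in that pool alone. The median log2 ratio of the pro-death probes was -0.043 on replicate 3, against -0.005 to 0.003 on the other arrays.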

How the results depend on the processing

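Under all 17 alternatives run, 0 probes were called by limma over all probes, 0 among the 10 genes and 0 in the other lists. The number of probes under an unadjusted p of 0.05 was 324 as reported and ran from 69 to 1054. The Bcl2l10 log2 ratio was -1.06 to 0.075, with -0.56 to 0.075 when 1 array was left out, and turned positive only without replicate 4 (0.075). That of Mcl1 was -0.95 to 0.26, and turned positive only with the sign of replicate 1 turned (0.26), as did that of Mapk8 (0.10). Without a replicate block (unpaired channels) the Bcl2l10 ratio was -0.29 ± 0.75 (SE), and the unpaired fit changed no call. With processed signals the median of pro-survival probes was 0.087, that of pro-death probes -0.034 and their difference 0.12. With the authors' deposited log ratios the pro-survival median was 0.0, the pro-death median -0.050 and the difference 0.050. The difference was -0.0027 without replicate 3 and up to 0.023 without another array. The cause was not tested. The class medians were not recomputed under the filters, for which no pro-death probe remains, nor under alternatives that change only the test. The 8 genes without a tested probe are limited by signal over background: their lack of detection does not show that a transcript was absent.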
